A study of Arabidopsis thaliana with 44 samples.

Results

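Seedlings labelled bzip28-2 were compared with seedlings labelled bzip60-2 after germination and growth in orbit. By the labels this sets the 2 transcription factor arms of the unfolded protein response against each other in flight, but the bZIP28 transcript, given below, went against the label of the first group. The comparison uses 8 of the 40 libraries of the expression table, 4 for each mutant, or 2 of the 10 groups of the series. Both mutants are in the Col-0 background, and both were grown in the dark for 14 days on sucrose medium aboard the space station, fixed in RNAlater and extracted as whole seedlings, many to a plate. The other groups, used below for context, are wild type (WT), the double mutant bzip28-2 bzip60-1 and the double mutant ire1a-4 ire1b-2 in flight, and the same 5 genotypes in ground hardware. Each mutant line is a single allele or allele pair. By the labels the double mutant shares its bzip28 allele with the single mutant and carries another bzip60 allele. Levels are FPKM, fragment numbers divided by transcript length and by library total, rescaled between libraries by the median ratio. A difference is that of log2(rescaled FPKM + 1), libraries labelled bzip28 minus bzip60, and a gene was called at an adjusted p below 0.05 (limma, Benjamini-Hochberg over 19186 tested genes).

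The endoplasmic reticulum folds secreted and membrane proteins, and unfolded protein there sets off a transcriptional response. In Arabidopsis bZIP28 is a membrane-bound transcription factor that moves to the Golgi under stress and is cut free by the proteases S1P and S2P. The second arm is the kinase and ribonuclease IRE1, which splices the bZIP60 messenger RNA so that it encodes a nuclear factor. Both factors bind promoter elements with an ACGT core and the ER stress response element I (ERSE-I). They share many targets, such as the BiP chaperones, calreticulins and protein disulfide isomerases.

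The transcripts of both genes named in the genotypes come first, and one of them went against its label. bZIP28 (AT3G10800, chromosome 3) stood at 78.3, 74.2, 87.2 and 103 in the 4 flight libraries labelled bzip28 and at 17.5, 16.8, 17.5 and 17.9 in those of bzip60. The bzip60 values lay beside WT, at 16.1 to 18, and the libraries labelled bzip28 lay above every library of the other 4 flight genotypes. In the double mutant, which carries the same bzip28 allele by its label, bZIP28 was low, at 3.63 to 4.09. The difference was 2.23 ± 0.10 (SE, adjusted p = 2.35e-17, limma). The table gives 1 value per locus, so transcript from one side of a disruption and full transcript cannot be told apart. Whether these libraries come from the labelled line or from another one was not tested. These libraries are called by their label throughout, and since they are the whole group, no result could be computed without them.

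bZIP60 (AT1G42990, chromosome 1) followed its label. It stood at 24.5, 32.1, 30.3 and 30.3 in the libraries labelled bzip28 and at 9.78, 12.9, 11 and 13.1 in bzip60. WT held 23.3 to 30.1 and the double mutant, with its other bzip60 allele, 9.74 to 12.6, so both bzip60 alleles lay below WT without overlap. Its difference was 1.26 ± 0.11 (SE, adjusted p = 4.01e-09, limma).

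Across all genes 14 of 19186 were called, 0.073% of those tested, with 7 higher and 7 lower in the libraries labelled bzip28 (0.0365% each). At an unadjusted p below 0.05 there were 621 genes, and in 947 (4.94%) the 4 and 4 libraries did not overlap. Besides bZIP28 and bZIP60 the fixed naming rule named AT1G03440, AT1G44835 and AT2G25690. The other 9 called genes were below 5 FPKM in both groups or were not called on the deposited scale, and they are named here after their values were seen.

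**Figure D1:**
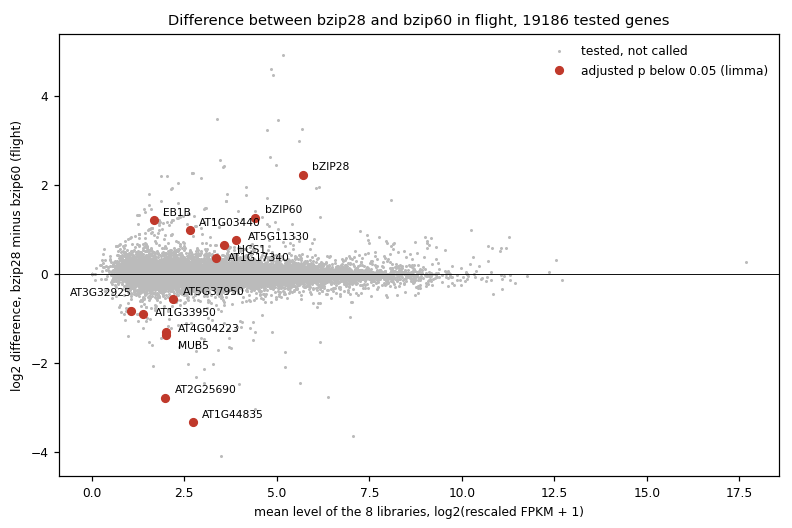
Each point is 1 of the 19186 tested genes, with its mean level over the 8 libraries on the x axis and its log2 difference, libraries labelled bzip28 minus bzip60, on the y axis; red points are the 14 called genes. Most genes lie near 0, the called genes reach from -3.33 for AT1G44835 to 2.23 for bZIP28, and uncalled genes beyond them, such as MIR390b at -4.09, had larger standard errors.

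Promoter sequences are shown for EB1B, a called gene that was low in both genotypes labelled with a bzip60 allele, and for 2 classical targets of the response, to set it beside the elements that bZIP28 and bZIP60 are known to bind. Each is the 250 bases before the annotated gene start in RefSeq's TAIR10.1 assembly, read 5′ to 3′ on the gene's strand, and none of these windows overlaps another annotated gene. Capitals mark matches, on either strand, to ERSE-I (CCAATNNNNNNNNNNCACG), the core ACGT, the G-box CACGTG, which contains that core, or UPRE-III (TCATCG). EB1B lies at chr5:25092391-25092640 on the plus strand, BIP3 at chr1:2931851-2932100 on the minus strand and P58IPK at chr5:749851-750100 on the plus strand.
EB1B: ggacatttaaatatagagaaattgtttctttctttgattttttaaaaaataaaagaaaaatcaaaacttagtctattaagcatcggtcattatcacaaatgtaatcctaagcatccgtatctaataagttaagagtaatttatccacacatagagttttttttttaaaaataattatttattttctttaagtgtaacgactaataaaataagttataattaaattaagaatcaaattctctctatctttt
BIP3: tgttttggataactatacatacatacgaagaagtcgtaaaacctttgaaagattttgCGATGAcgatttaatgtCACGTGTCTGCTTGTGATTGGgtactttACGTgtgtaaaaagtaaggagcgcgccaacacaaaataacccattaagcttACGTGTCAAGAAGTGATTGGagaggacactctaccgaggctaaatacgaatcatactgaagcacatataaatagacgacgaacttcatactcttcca
P58IPK: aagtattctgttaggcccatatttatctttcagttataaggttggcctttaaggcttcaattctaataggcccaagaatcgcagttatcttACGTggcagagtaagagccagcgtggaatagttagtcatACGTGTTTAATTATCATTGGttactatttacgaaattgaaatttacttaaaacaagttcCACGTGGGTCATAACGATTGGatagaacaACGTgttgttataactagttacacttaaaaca
The window of EB1B holds none of the 4 patterns, whereas BIP3 and P58IPK hold 2 ERSE-I matches each. Windows of the calreticulin CRT1A and of SDF2, from the chaperone list below, were also read and are not shown. They hold 1 and 0 ERSE-I matches, so genes of the ER lists differ in this.

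Counted over windows of this length, ERSE-I was present in 11 of 67 genes of the 6 ER lists described below (16.4%), in 189 of 27443 protein-coding nuclear genes (0.689%) and in 0 of the 12 protein-coding genes called. The ACGT core was present in 67.2% of the ER windows, 44.1% of all windows and 3 of the 12 called genes, which were bZIP60, AT1G33950 and MUB5. A G-box was found in 20.9% of ER windows and 6.49% of all, and UPRE-III in 11.9% and 6.45%. Each was in 1 of the 12 called genes (8.33%), the G-box in bZIP60 and UPRE-III in AT1G03440. A match is a string of letters only, and a window without one says nothing about binding elsewhere.

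Besides bZIP60, 3 genes that were higher in the libraries labelled bzip28 were low in the bzip60 libraries and at similar levels in the bzip28bzip60 double mutant. EB1B (AT5G62500, chromosome 5), which encodes a protein that binds the growing ends of microtubules, stood at 3.43, 2.95, 3.43 and 4.04 in the libraries labelled bzip28 and at 0.96, 0.54, 1.39 and 0.91 in bzip60. WT held 3.81 to 5.01, ire1aire1b 3.68 to 4.48 and the double mutant 0.82 to 1.22. Its difference was 1.21 ± 0.16 (SE, adjusted p = 4.98e-05, limma).

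AT1G03440 (chromosome 1), a leucine-rich repeat family gene, stood at 7.53, 6.65, 8.14 and 6.92 in the libraries labelled bzip28 and at 3.43, 3.51, 3.01 and 2.86 in bzip60. The groups did not overlap, and the same split was seen between WT at 7.49 to 10.2 and the double mutant at 2.57 to 3.46. The difference was 0.98 ± 0.12 (SE, adjusted p = 1.17e-05, limma).

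AT5G11330 (chromosome 5), annotated as a FAD/NAD(P)-binding oxidoreductase, stood at 16.4, 15.5, 20.5 and 18.1 against 10.8, 9.99, 9.22 and 9.75. WT held 16.5 to 21.3 and the double mutant 9.23 to 11.4. Its difference was 0.76 ± 0.09 (SE, adjusted p = 2.58e-06, limma), but on the deposited scale it was 0.70 with an adjusted p of 0.58. In ire1aire1b flight libraries these 3 genes stood with WT rather than with bzip60 (AT1G03440 7.91 to 9.55, AT5G11330 17 to 19).

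**Figure D2:**
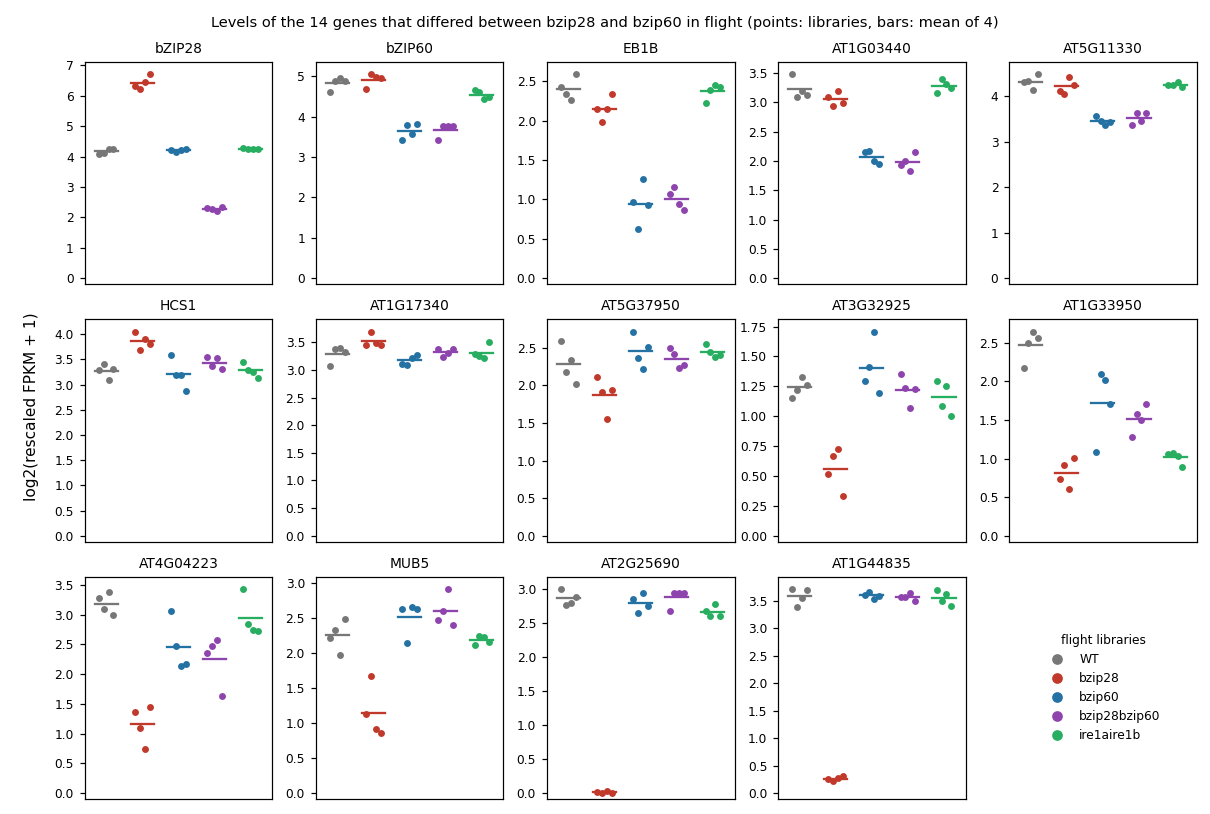
Each panel is 1 of the 14 called genes, with log2(rescaled FPKM + 1) on the y axis, a point for each of the 4 libraries of the 5 flight genotypes and a bar at each group mean. bZIP60, EB1B, AT1G03440 and AT5G11330 are low in bzip60 and in the double mutant, whereas AT2G25690 and AT1G44835 are near 0 in the libraries labelled bzip28 alone, and bZIP28 is highest in them and lowest in the double mutant.

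Both genes with the largest negative differences were close to absent in the libraries labelled bzip28 and in no other genotype. AT1G44835 (chromosome 1), annotated as a YbaK/aminoacyl-tRNA synthetase-associated domain protein, stood at 0.20, 0.17, 0.20 and 0.24 in those libraries and at 11.1, 11.7, 10.6 and 11 in bzip60. WT, the double mutant and ire1aire1b held 9.43 to 12.1, 10.3 to 11.4 and 9.63 to 12. The difference was -3.33 ± 0.10 (SE, adjusted p = 2.49e-22, limma).

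AT2G25690 (chromosome 2), annotated as a DUF581 protein, stood at 0.02, 0, 0.02 and 0 in the libraries labelled bzip28 and at 6.21, 5.27, 6.63 and 5.67 in bzip60. The double mutant, at 5.4 to 6.68, overlapped WT, at 5.77 to 6.97. Its difference was -2.78 ± 0.15 (SE, adjusted p = 1.19e-15, limma). A pseudocount of 0.1, in place of the 1 added before the log2, gave -5.79 for AT2G25690 and -5.21 for AT1G44835. Both were still called, but the size and order of these differences depend on that constant. HCS1 (AT2G25710), which encodes the enzyme that attaches biotin to carboxylases, is the third locus along from AT2G25690 and was called in the other direction. It stood at 15.6, 11.9, 13.9 and 12.9 against 11, 8.17, 8.09 and 6.27, with WT at 7.52 to 9.66, a difference of 0.65 ± 0.14 (SE, adjusted p = 0.0437, limma). Of the 20 loci nearest to AT2G25690 15 were tested and HCS1 was the 1 called, and of the 9 tested around AT1G44835 none was called.

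The loci beside bZIP28 and bZIP60 were read in the same way. Of the 12 tested among the 20 loci nearest to bZIP28, and of the 4 tested around bZIP60, none was called. AT3G10790, the locus just before bZIP28, was below the level tested but stood at 1.04, 1.29, 1.25 and 0.92 in the libraries labelled bzip28. It was listed at 0 in all 4 bzip60 and all 4 double mutant libraries, and in WT it was above 0 in 1 library, at 0.19. With the filter on low levels removed its difference was 1.08 ± 0.12 (SE, adjusted p = 8.98e-07, limma). AT1G42980, beside bZIP60, stood at 0.50, 1.13, 0.27 and 1.05 against 0.096, 0, 0.031 and 0, with WT at 0.30 to 0.56. Its groups did not overlap, but the difference of 0.72 ± 0.21 had an adjusted p of 0.66 without the filter.

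A further 5 genes were lower in the libraries labelled bzip28. MUB5 (AT1G77870), a membrane-anchored ubiquitin-fold protein, stood at 1.19, 2.2, 0.89 and 0.81 against 5.18, 3.44, 5.32 and 5.17 in bzip60. AT1G33950, of the AIG1 family first known from defence, stood at 0.66, 0.89, 0.51 and 1.01 against 1.11, 3.26, 3.03 and 2.25. WT was above the libraries labelled bzip28 for both, at 2.93 to 4.6 for MUB5 and 3.52 to 5.25 for AT1G33950. For AT1G33950 WT was also above every library of bzip60, of the double mutant (1.44 to 2.25) and of ire1aire1b (0.86 to 1.103). The differences were -1.37 ± 0.20 (SE, adjusted p = 1.71e-04) for MUB5 and -0.91 ± 0.14 (SE, adjusted p = 6.87e-04) for AT1G33950 (limma). Fitted on the 8 libraries alone neither was called, with adjusted p of 0.116 and 0.342. A pseudocount of 0.1 also left both uncalled (adjusted p = 0.856 for MUB5 and 0.235 for AT1G33950, limma). In the fit of the 20 flight libraries alone AT1G33950 had an adjusted p of 0.0534, and MUB5 was called (2.94e-04). The annotated MUB5 locus overlaps AT1G77880, so their fragments may be shared.

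The non-coding RNA AT4G04223 stood at 1.58, 1.13, 0.67 and 1.72 against 7.32, 4.55, 3.40 and 3.49, a difference of -1.30 ± 0.25 (SE, adjusted p = 0.0227, limma). The pseudogene AT3G32925, which overlaps AT3G32920, stood at 0.43, 0.59, 0.66 and 0.26 against 1.46, 1.66, 2.27 and 1.29. Its difference was -0.84 ± 0.17 (SE, adjusted p = 0.0227, limma). Both were above the libraries labelled bzip28 in every WT flight library, at 6.93 to 9.40 and 1.23 to 1.52. For AT4G04223 the bzip60 and double mutant libraries also had lower means than WT, 4.69 and 3.94 against 8.15.

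AT5G37950, a UDP-glycosyltransferase, stood at 3.31, 2.76, 1.92 and 2.85 against 5.56, 4.13, 3.66 and 4.68, a difference of -0.57 ± 0.12 (SE, adjusted p = 0.0437, limma). Its neighbour AT5G37940, below the level tested, stood at 0.21, 0.31, 0.21 and 0.39 against 0.88, 0.79, 0.48 and 0.63, a difference of -0.40 (adjusted p = 0.00488 without the filter, limma). WT held 3.03 to 5.04 for AT5G37950 and 0.36 to 0.80 for AT5G37940, overlapping the libraries labelled bzip28 in both. The smallest difference called was that of AT1G17340, a phosphoinositide phosphatase gene, at 9.91, 11.9, 10.3 and 9.90 against 7.62, 7.54, 8.31 and 8.63. It measured 0.35 ± 0.07 (SE, adjusted p = 0.0461, limma) and was not called with the replicate block (adjusted p = 0.0869), under which the other 13 calls held.

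For 5 of the 14 the call depended on the libraries included while the difference moved little. AT1G17340 lost its call on leaving out any of the 8 libraries except bzip60 replicate 4, with differences of 0.291 to 0.381 and adjusted p up to 0.576. HCS1 lost it on leaving out any except bzip60 replicate 1, with differences of 0.539 to 0.779 (adjusted p up to 0.502). AT5G37950 kept its call without bzip28 replicate 1 or bzip60 replicate 3 and lost it without each of the others, with differences of -0.649 to -0.462 (up to 0.522). AT4G04223 was lost without bzip28 replicate 2 or 3 or bzip60 replicate 1 or 2, with differences of -1.4 to -1.1 (up to 0.318). AT3G32925 was lost without bzip28 replicate 1, 2 or 4 or bzip60 replicate 2 or 3, with differences of -0.912 to -0.741 (up to 0.208). The other 9 genes were called with each of the 8 libraries left out in turn. Fitted on the 8 libraries alone 7 of the 14 were called. On the deposited scale 9 were called, and besides AT5G11330 the genes lost were HCS1 and AT1G17340 (adjusted p = 1 for both), AT4G04223 (0.092) and AT5G37950 (0.0925).

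Genes of the unfolded protein response were set beside these calls as 6 lists of 67 genes, all of which are in the table and 63 of which were tested. The 2 called were bZIP28 and bZIP60, the genes named in the genotypes. None of the other 61 was called and none had an unadjusted p below 0.05 (limma), the smallest being 0.0681 for PDIL5-2. This fit includes the more variable ground libraries, so flight p-values may run large. Over all tested genes 3.24% were below 0.05, against 9.01% with the 20 flight libraries fitted alone. The calls which that fit added (AT3G30122, AT4G04220, AT4G16745 and AT5G43500) are outside the 6 lists, and unadjusted p of the 61 was not read there. The differences of these 61 ran from -0.18 for HRD3B to 0.21 for UTR1, with a median of -0.0063 against -0.0040 over all tested genes. The 95% intervals of these 61 reached from -0.50 (DAD2) to 0.48 (UTR1), so differences beyond those bounds lay outside the interval of every member.

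Among the 11 tested sensors and transducers, the 9 other than bZIP28 and bZIP60 were not called. IRE1A, the kinase and ribonuclease of the bZIP60 arm, had a mean of 27.6 ± 0.96 (SD, n = 4) in the libraries labelled bzip28 and 27.6 ± 1.55 in bzip60. bZIP17, the close relative of bZIP28, had 13.9 ± 0.47 and 14.1 ± 1.15 (SD, n = 4). The largest difference in this list after bZIP28 and bZIP60 was that of NAC062, a membrane-tethered transcription factor of the ER stress response, at 0.18 ± 0.12 (SE). NAC103, another stress-induced factor of that family, stood at 1.1, 1.12, 0.92 and 1.22 against 1.01, 0.94, 0.98 and 1.18, and all 8 values were below the WT range of 1.57 to 1.99.

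None of the 10 tested lumenal chaperones was called. BIP1, an Hsp70 that binds unfolded chains, stood at 57.3, 61.2, 59.6 and 61.1 against 50.2, 56.3, 59.3 and 64.1. BIP2 stood at 36.4, 35.2, 36 and 35.7 against 30.8, 34.6, 38 and 39.7. In both genes the bzip60 values spanned those of the libraries labelled bzip28. HSP90.7, the lumenal Hsp90, had means of 70.6 ± 6.73 and 73.5 ± 7.54 (SD, n = 4), a difference of -0.06 with an interval of -0.25 to 0.13. Summed over the 11 chaperone genes of the list, levels were 293 to 313 in the libraries labelled bzip28, 267 to 321 in bzip60 and 298 to 324 in WT.

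The 15 tested protein disulfide isomerases and ERO oxidases, which form and shuffle disulfide bonds, gave no call. PDIL5-2 was the 1 tested ER gene besides bZIP28 and bZIP60 whose groups did not overlap, at 25.8 to 29.8 against 30.7 to 32.3. The WT range of 27.7 to 35.1 covered all of the bzip60 range and part of the other. This is 1 of 61 genes without overlap (1.64%), against 4.94% of all tested genes. PDIL2-1, the highest of the list, had 85.6 ± 1.84 and 86.8 ± 2.85 (SD, n = 4).

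The 6 genes of the calnexin and calreticulin cycle, lectins that hold glycoproteins during folding, differed by -0.03 to 0.02. Calnexin CNX1 had 96.8 ± 5.44 and 97.1 ± 9.80, and calreticulin CRT1A 90.0 ± 4.49 and 89.2 ± 13 (SD, n = 4). Among the 14 genes of ER-associated degradation, which returns misfolded proteins to the cytosol, differences ran from -0.18 for HRD3B to 0.06 for UBC32. The 7 tested genes of the last list, other ER stress markers, ran from -0.15 for DAD2, a gene of the oligosaccharyltransferase, to 0.21 for UTR1, a nucleotide sugar transporter. UTR1 stood at 6.76, 6.94, 6.86 and 5.93 against 5.77, 6.13, 4.85 and 5.56, and the groups overlapped.

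**Figure D3:**
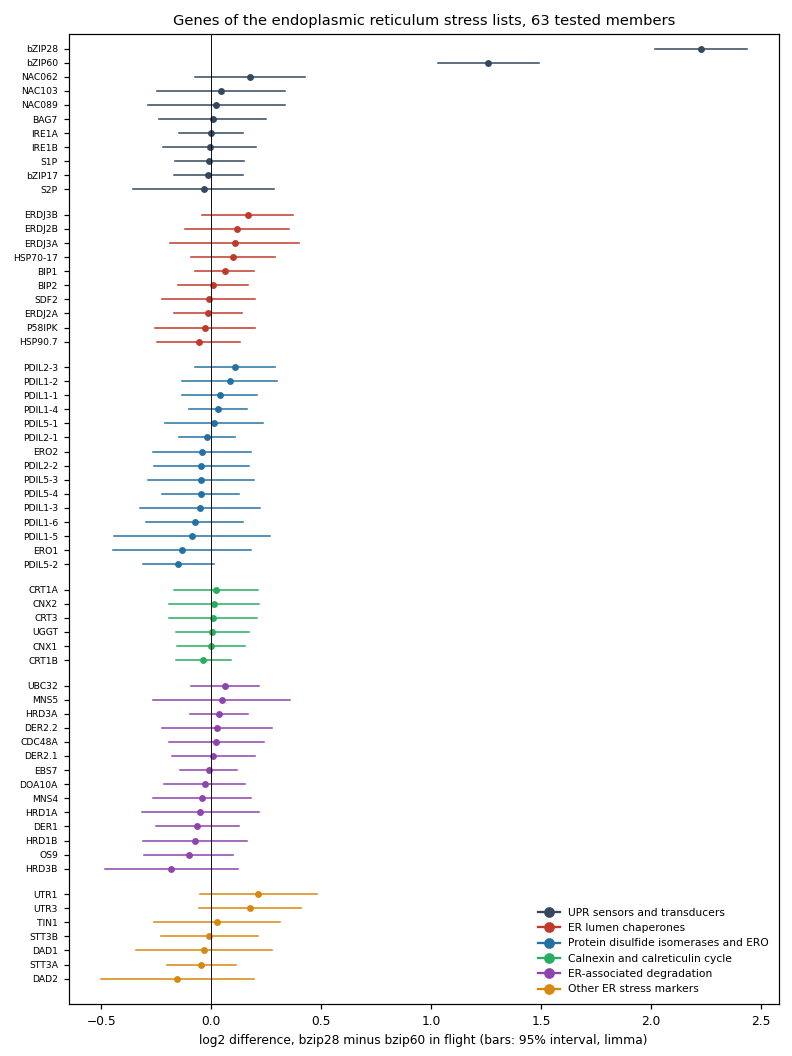
Points are the log2 differences, libraries labelled bzip28 minus bzip60 in flight, of the 63 tested genes of the 6 ER lists, ordered within each list, and bars are 95% intervals from limma. bZIP28 and bZIP60 stand at 2.23 and 1.26, and the intervals of the other 61 all include 0.

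The 4 list members below the level tested are bZIP49, BIP3, SEC31A and SARA1A. SEC31A (AT1G18830), a coat protein of the vesicles that leave the ER, stood at 0.17, 0.36, 0.20 and 0.31 in the libraries labelled bzip28 and was listed at 0 in all 4 of bzip60. WT held 0.081 to 0.150, the double mutant 0 to 0.045 and ire1aire1b 0 to 0.024, so SEC31A was higher in WT and in the libraries labelled bzip28 than in each genotype that lacks bZIP60 or IRE1 by its label. On the ground it stood at 1.2 to 2.46 in WT and 0.41 to 1.23 in those labelled bzip28, against at most 0.034 in the other 3 genotypes. Without the filter on low levels its flight difference was 0.33 ± 0.09 with an adjusted p of 0.606 (limma), and at these levels the fitted difference is small by construction.

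BIP3 (AT1G09080), the BiP gene that is strongly induced by ER stress, stood at 0.13, 0.47, 0.29 and 0.32 in the libraries labelled bzip28 and at 0.065, 0.049, 0.124 and 0.091 in bzip60. The groups did not overlap, WT ran from 0.12 to 0.38 and the double mutant from 0.084 to 0.25. Its difference of 0.26 ± 0.13 had an adjusted p of 1 without the filter. SARA1A and bZIP49 overlapped between the groups, with means of 0.26 and 0.081 and of 0.32 and 0.22.

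On the ground the same 2 mutants differed in 301 genes (1.57% of those tested), 117 higher and 184 lower in the libraries labelled bzip28. There the short ribosomal locus AT2G01021 took 70.7 to 89.9% of all FPKM in the libraries labelled bzip28. In bzip60 it took 36.1 to 66.9%, without overlap, so the ground differences rest more on the rescaling than those in flight. Of the 14 genes called in flight 8 were also called on the ground, all in the same direction, and 13 had the same sign. AT1G03440 differed by 0.69 on the ground, AT5G11330 by 0.64, AT2G25690 by -2.75 and AT4G04223 by -1.53. EB1B differed by 0.33 (adjusted p = 0.319, limma), with 0.95 to 1.46 in the libraries labelled bzip28 and 0.54 to 1.28 in bzip60. AT1G33950 was listed at 0 in all 8 ground libraries of the 2 mutants, so its difference could be read in flight alone. MUB5 and AT5G37950 were near 0 there. Ground means, libraries labelled bzip28 and bzip60, were 0.094 and 0.35 for MUB5 and 0.051 and 0.10 for AT5G37950. The ground sign of these genes, counted among the 13, can hardly be read. Libraries within a group varied more on the ground, with a median residual SD of 0.22 on the log2 scale against 0.143 in flight. The fit gives each gene 1 spread over all groups, so ground standard errors may be too small and flight ones too large.

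The flight difference minus the ground difference was called for 3 genes (0.0156% of those tested, 1302 at an unadjusted p below 0.05). bZIP60 differed less in flight, by 1.26 against 2.28 on the ground (interaction -1.02 ± 0.16, SE, adjusted p = 0.00595, limma). The level in the libraries labelled bzip28 was 24.5 to 32.1 in flight and 56.2 to 72.4 on the ground, beside 9.78 to 13.1 and 11.3 to 14.1 in bzip60. WT was also lower in flight, at 23.3 to 30.1 against 64.9 to 72.2 on the ground. On the deposited scale, where 10219 genes were called for the interaction, that of bZIP60 was -0.25 (adjusted p = 0.379, limma). There the interactions of bZIP28 and AT1G44835, described next, were 1.61 (adjusted p = 0.00222) and -0.991 (adjusted p = 0.0138, limma).

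bZIP28 differed more in flight, by 2.23 against 1.39 (interaction 0.83 ± 0.14, SE, adjusted p = 0.0114, limma). In bzip60 it was 16.8 to 17.9 in flight and 22.8 to 27.3 on the ground. The libraries labelled bzip28 held 74.2 to 103 and 51.6 to 85.0. Without bzip28 flight replicate 4, the library at 103, the interaction was 0.74 (adjusted p = 0.0582), and with a lane term it was 0.757 (adjusted p = 0.11). Lane 1 held no ground library and lane 3 no flight library of the series, so lane and condition are partly confounded. AT1G44835 differed by -3.33 in flight and -2.45 on the ground (interaction -0.88 ± 0.15, SE, adjusted p = 0.00946, limma). It stood at 10.6 to 11.7 in bzip60 in flight and 4.6 to 7.09 on the ground, beside 9.43 to 12.1 and 4.24 to 6.25 in WT. With a pseudocount of 0.1 its adjusted p was 0.553, and fitted on the 16 libraries of the 2 mutants none of the 3 was called (adjusted p 0.0631 to 0.588).

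**Figure D4:**
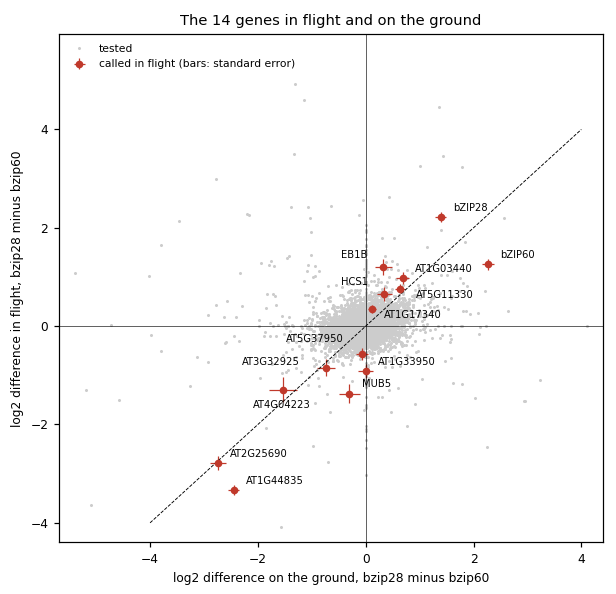
Grey points are the tested genes and red points the 14 called in flight, with the log2 difference on the ground on the x axis and in flight on the y axis, both as libraries labelled bzip28 minus bzip60, and standard errors as bars; the dashed line marks equal differences. bZIP60 lies to the right of the line (1.26 in flight, 2.28 on the ground), bZIP28 above it (2.23 and 1.39), and AT1G33950 has no difference on the ground.

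The remaining 16 lists held 217 genes, of which 175 were tested and none was called. XTH17, an enzyme that remodels xyloglucan in the cell wall, had the largest negative difference, at 8.07, 7.92, 6.90 and 4.99 in the libraries labelled bzip28 and 12.5, 12.6, 13 and 11.9 in bzip60. The groups did not overlap, and WT, at 7.13 to 9.96, lay below bzip60 and overlapped the libraries labelled bzip28, but the difference of -0.78 ± 0.23 had an adjusted p of 1 (limma). At the other end RD29A, a drought and cold gene, stood at 0.31, 0.91, 3.5 and 19.1 against 0.40, 0.29, 1.94 and 0.67, and 1 library carried its mean. DIN10, induced by dark and sugar starvation, stood at 229, 223, 237 and 241 against 201, 177, 165 and 192, without overlap (difference 0.34 ± 0.09, adjusted p = 0.407, limma). In all 8 of the 175 did not overlap (4.57%, against 4.94% of all genes).

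Markers of single tissues were read because whole seedlings were extracted, in which fewer cells of a type and less RNA per cell cannot be told apart. All 8 shoot epidermis markers were below 0 in the difference and none was called. Their summed level was 1887 to 2305 in the libraries labelled bzip28, 2568 to 2996 in bzip60 and 1918 to 2883 in WT. Most of that sum was LTP2, a lipid transfer protein, at 1665, 1689, 1412 and 1444 against 2202, 2311, 1995 and 1972. Seed storage and late embryo markers summed to 3.69 to 5.75 and 3.49 to 4.39, with 2 and 4 of the 13 at 0 in all 4 libraries. Root hair markers summed to 8.91 to 24.5 and 9.44 to 17.55. The part of the epidermis difference in the 14 calls was not tested.

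The 4 libraries of a group are biological replicates per the series text, and their depth is unknown, since the values are not counts. Of 13827 genes with a mean of at least 5 FPKM, 117 were listed at 0 in 1 or more of the 8 libraries, so a listed 0 may be a missing estimate. In flight the ribosomal locus AT2G01021 took 13.2 to 35.9% of all FPKM in the libraries labelled bzip28 and 11.7 to 38.6% in bzip60. The number of loci above 0 was 23845 to 24661 and 23975 to 24268. The groups were spread unevenly over sequencing lanes. With lane as a term 9 of the 14 calls remained, and the calls of AT1G17340 (adjusted p = 0.128), HCS1 (0.0815), AT3G32925 (0.138), AT4G04223 (0.0736) and AT5G37950 (0.294) were lost (limma). Plastid-encoded genes summed to 38330 to 73900 and 32510 to 56080, and none of the 94 tested was called.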

How the data were processed

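The authors deposited 1 table of FPKM for 34133 loci in 40 libraries, made per the submitters' processing notes with cutadapt 1.8.1, TopHat2 2.0.14, Bowtie2 2.2.4 and Cufflinks 1.3.0 on TAIR10. The libraries were stranded, per the labels. Here the FPKM were divided by median-ratio factors from 14104 genes above 1 FPKM in all libraries and taken to log2(value + 1). limma 3.58.1 in R 4.3.3 was fitted with trend to all 40 libraries with 10 group means, 30 residual degrees of freedom, over the 19186 genes with a mean deposited FPKM of at least 1. In simulated data 51 of 100 genes changed by 0.5 (log2) and 91 of 100 changed by 1 were recovered, with 5 false calls among 19183 genes. The changed genes all had a mean of at least 5 FPKM, and the noise was normal and independent, without lane or pairing effects. Recovery at lower levels was not simulated. Rescaling assumes that most genes do not differ.

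The naming rule took bZIP28, bZIP60 and the 12 largest calls each way that were also called on the deposited scale, reached a mean of 5 FPKM in either group and did not overlap, plus called list members. Comparison, members and the 22 lists (284 genes) were chosen with earlier results of these data known. Same-numbered libraries of the 2 groups deviated together (r = 0.22, 0.119, 0.107 and 0.133), against r of -0.167 to 0.0854 for differently numbered ones. The numbers were therefore taken to pair the libraries. The main fit leaves pairing out, and the replicate block is an alternative. The block goes by number within flight and within ground. In the sample titles the numbers follow the letters A to D in bzip28 and bzip60. They do not in the double mutant or in WT on the ground, so there the block may join libraries that are not paired. RefSeq's TAIR10.1 annotation named 31510 loci and gave gene order and promoter sequence. Figures were drawn with matplotlib 3.10.9.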

Additional observations from a re-analysis of the deposited data

Results flagged for a closer look

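The difference between the 2 mutants itself differed between flight and ground for 3 genes by the interaction test of limma: bZIP60 (-1.02), AT1G44835 (-0.883) and bZIP28 (0.834).

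Among the called genes and the ER list members, 9 of 150 groups of 4 held a library far from the other 3, where chance gives about 1 in 20. In bzip60 these were MUB5 at 3.44 (the others 5.17 to 5.32), ERDJ3A at 1.70 (1.09 to 1.11), PDIL1-4 at 74.4 (all others near 70.0), PDIL5-3 at 5.94 (5.19 to 5.31) and DOA10A at 51.0 (43.3 to 43.8). In the libraries labelled bzip28 they were PDIL5-3 at 4.07 (5.52 to 5.73), ERO1 at 2.28 (1.21 to 1.39), CRT1B at 62.2 (57.2 to 57.4) and UTR3 at 17.5 (12.3 to 12.8).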

How the results depend on the processing

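Of the 14 calls 6 (bZIP28, bZIP60, AT1G03440, AT1G44835, AT2G25690 and EB1B, which was too low to be tested at a mean of at least 5 FPKM) held under every one of the 17 alternatives in which they were tested, and none of the 14 changed sign. The main counts were 7 higher, 7 lower and 3 for the interaction. On the deposited scale 4 genes were higher, and the interaction was called for 10219. On that scale the median-ratio factors are not divided out. On the ground these factors (log2) were -1.34 to -0.28 in the libraries labelled bzip28 and -0.04 to 0.31 in bzip60. In flight they were 0.24 to 0.47 and 0.28 to 0.51. The cause of the 10219 calls was not tested. The genes lower numbered 3 with scale factors from the 8 libraries, 3 at a mean of at least 5 FPKM, 4 with the 8 libraries alone and 4 with a lane term, under which the interaction was called for 2. Without a filter 11 were higher and 11 lower. A pseudocount of 0.1 gave 10 calls, 9 of them shared with the main fit. MUB5 (adjusted p = 0.856), AT1G33950 (0.235), HCS1 (0.0547), AT1G17340 (0.0531) and AT5G37950 were then not called (limma). With 1 library left out there were 5 to 6 higher, 4 to 6 lower and 2 to 4 for the interaction, the 4 lower without bzip28 replicate 2 or bzip60 replicate 2. The replicate block gave 13 calls in place of 14 and 3 for the interaction, and changed no call but that of AT1G17340. Since its numbers do not follow the title letters in every group, it is a partial check of the pairing. The 20 flight libraries fitted alone gave 15 calls, 11 of them shared, and fits without the ground libraries give no interaction. Beyond these, depth is unknown, and simulated differences of 0.5 were recovered in 51 of 100 genes with means of at least 5 FPKM, so differences of that size could be missed. For genes at lower levels the recovery is unknown.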
